A study of Rattus norvegicus with 13 samples.

Results

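Genes of the collagen fibril were measured in the rat left ventricle, namely those of the fibril-forming collagens (Col1a1, Col1a2, Col3a1, Col5a1, Col5a2), the crosslinking enzymes (Lox, Loxl1, Loxl2), the collagen chaperone Serpinh1 and the processing enhancer Pcolce. The 10 genes were taken by name from the non-control spots of the scanner files, with every probe that carries one of these names. All 10 were found, with 13 of the 30367 probes on the array, and all 13 probes were bright enough to be tested beside the 15367 genes of the whole comparison. The arrays held left ventricle of male rats aged 45 weeks that were either wild type (WT) or labelled as overexpressing ADBR3, the submitters' spelling for the β3-adrenergic receptor (gene Adrb3). There were 6 arrays from 4 WT rats and 7 arrays from 5 ADBR3 rats, with the dye Cy3 throughout. Rat 1 of each group had its RNA labelled on 2 occasions, and these arrays were averaged. The remaining extra array of each group repeated the hybridization of a rat that the labels do not identify, and it was left out of the comparison. How the receptor was overexpressed, which promoter drove it and which strain was used are not given in the sources used here. Levels are given in log2 units relative to the 75th percentile of the array, so that 0 stands for the signal that 75% of that array's spots lay below.

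Fibrillar collagens give the heart wall its tensile strength. Procollagen chains are hydroxylated, folded into a triple helix with the help of chaperones, exported and trimmed of their end propeptides, after which they assemble into fibrils that lysyl oxidases crosslink. In the ventricle, fibroblasts make most of this collagen, and its accumulation between cardiomyocytes is the hallmark of cardiac fibrosis.

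The 75th percentile of the signal lay between 760.4 and 908.7 on the 13 arrays, and no spot was saturated. The probe named Adrb3 cleared the background on 0 of 6 arrays in WT and 1 of 7 in ADBR3 rats, and since the introduced sequence is not stated, it does not check the labels. Cardiomyocyte markers were bright in every rat, with a mean level over 10 genes of 7.10 to 7.35 in WT and 7.22 to 7.31 in ADBR3 rats, and all 10 were tested. Of 15 fibroblast markers 13 were tested, and their mean level was 0.80 to 1.00 in WT and 0.86 to 1.15 in ADBR3 rats. Of these 13 genes, 12 were higher and 1 lower in ADBR3 rats, where 46.7% of all genes were higher. Their median difference was 0.071, or 0.033 without ADBR3 rat 6. Of 9 tested smooth muscle and pericyte markers, 8 were higher and 1 lower. Of 10 cardiomyocyte, 10 endothelial and 10 macrophage markers, 2, 2 and 3 were higher. None of these markers passed the adjusted threshold of the comparison below. In whole tissue, fewer cells of a type and less RNA per cell cannot be told apart.

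None of the 10 genes differed between the groups beyond the spread between rats. With limma over 15367 genes and Benjamini-Hochberg adjustment, 0 of 10 passed an adjusted p of 0.05, against 1 gene in the whole comparison (0.00651%), and 0 of 10 had an unadjusted p below 0.05, against 9.44% of all genes. In 0 of 10 were the WT and ADBR3 rats fully apart, against 3.52% of all genes. On the scaling used here 6 of the 10 were higher and 4 lower in ADBR3 rats. The median difference was 0.01, beside -0.0089 over all genes tested, of which 46.7% were higher. Scaling the arrays on their median shifts every gene alike: 9 of the 10 were then higher, with Col5a2, Lox and Serpinh1 on the other side of 0, and the median was 0.052 beside 0.033 over all genes. Quantile normalization gave the same count, with 0.055 beside 0.016. The direction of that median rested on single rats: it was -0.051 without ADBR3 rat 6, with 4 genes higher, -0.0062 without WT rat 1, with 5 higher, and 0.078 without ADBR3 rat 5, with 9 higher.

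**Figure D1:**
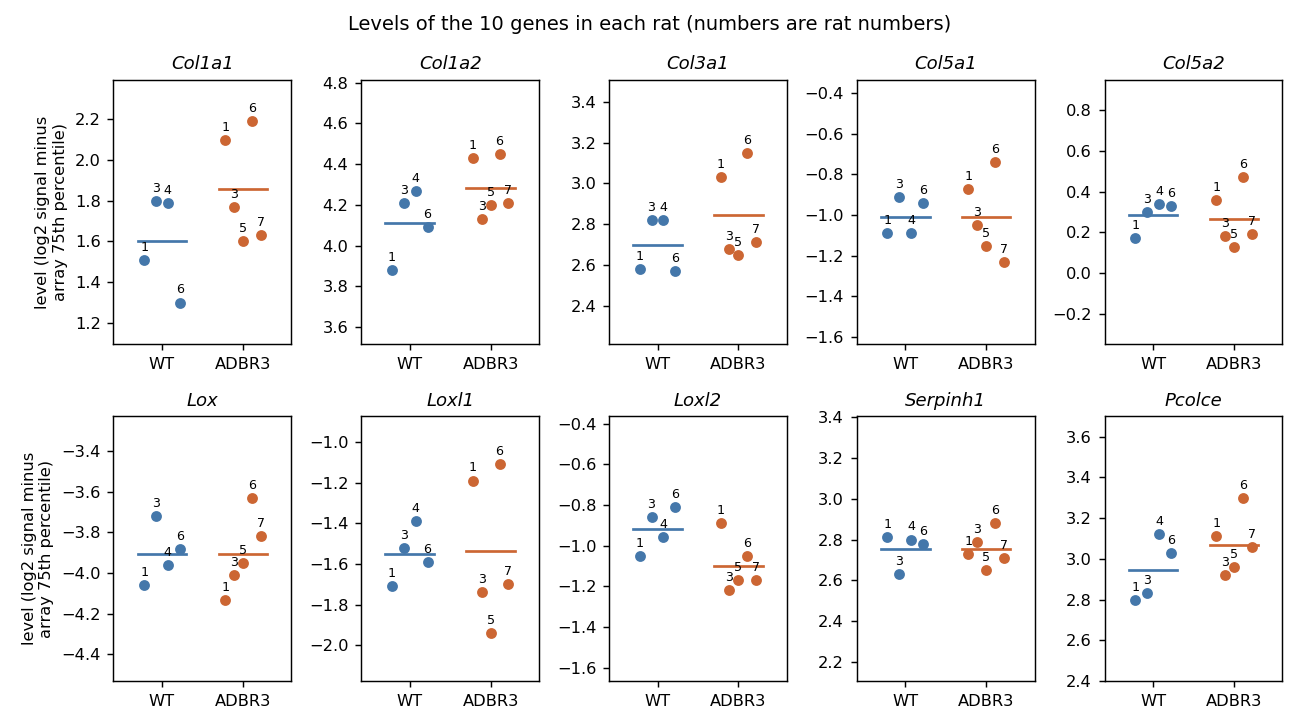
Level of each of the 10 genes in each rat (vertical axis, log2 relative to the 75th percentile of each array, every panel spanning the same range), with WT rats at the left and ADBR3 rats at the right of a panel. Points are rats, numbered as in the text, and lines are group means; the groups overlap in every panel, and ADBR3 rat 6 is the highest point in 9 of the 10.

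Collagens I and III, the main fibril-forming collagens of the heart, had the largest positive differences of the 10 genes. Col1a1 encodes the α1 chain of type I collagen. Its level was 1.51, 1.80, 1.79 and 1.30 in WT rats 1, 3, 4 and 6, and 2.10, 1.77, 1.60, 2.19 and 1.63 in ADBR3 rats 1, 3, 5, 6 and 7. ADBR3 rats 1 and 6 lay above all WT rats, while the other 3 ADBR3 rats lay inside the WT range. The mean of the ADBR3 rats was 1.86 ± 0.270 (SD, n = 5) and that of the WT rats 1.60 ± 0.242 (SD, n = 4), a difference of 0.26 ± 0.156 (SE), or 1.20-fold (limma, adjusted p = 0.607). The 95% confidence interval of the difference ran from -0.094 to 0.61. The difference was 0.16 without WT rat 6, 0.18 without ADBR3 rat 6 and 0.48 on hearts 1, 3 and 6 alone. That subset keeps ADBR3 rats 1 and 6, the highest, and WT rats 1 and 6, the lowest. It leaves out ADBR3 rats 5 and 7, the lowest of their group, so 0.48 follows from which rats it holds.

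Col1a2 encodes the α2 chain, which joins a pair of α1 chains in each type I molecule. Its level was 3.88, 4.21, 4.27 and 4.09 in WT rats 1, 3, 4 and 6 and 4.43, 4.13, 4.20, 4.45 and 4.21 in ADBR3 rats 1, 3, 5, 6 and 7. Again ADBR3 rats 1 and 6 were the highest, and WT rat 1 was the lowest. The difference was 0.17 ± 0.101 (SE; limma, adjusted p = 0.599). It was 0.095 without WT rat 1.

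Col3a1 encodes the chain of type III collagen, which is found with type I in the finer fibrils of the heart's connective tissue. Its level was 2.58, 2.82, 2.82 and 2.57 in WT rats 1, 3, 4 and 6 and 3.03, 2.68, 2.65, 3.15 and 2.71 in ADBR3 rats 1, 3, 5, 6 and 7. The pattern over rats was that of Col1a1, with ADBR3 rats 1 and 6 above every other rat. The difference was 0.15 ± 0.120 (SE; limma, adjusted p = 0.709), and it was 0.071 without ADBR3 rat 6 and 0.10 without ADBR3 rat 1 or WT rat 6.

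The arrays of both groups met on 3 of the 5 slides, and the differences within those slides did not run one way. In the values that follow, the replicate hybridizations, whose rat is not named, were counted as arrays of their group. For Col1a1 the difference was -0.16 on slide 1 (1 WT and 1 ADBR3 array), 0.65 on slide 3 (2 WT rats and 1 ADBR3 rat) and 0.029 on slide 4 (1 WT and 3 ADBR3 arrays). Col1a2 differed by -0.058, 0.43 and 0.0099 and Col3a1 by -0.10, 0.46 and 0.047 on the same slides. Within scan day 2, which held 4 samples of each group, the differences of Col1a1, Col1a2 and Col3a1 were 0.29, 0.17 and 0.19, and within scan day 1, with 1 WT and 3 ADBR3 samples, they were 0.058, -0.0062 and -0.013.

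Type V collagen is a minor component that is built into type I fibrils and is needed to start them and to limit their diameter. Col5a1, which encodes its α1 chain, was at -1.09, -0.91, -1.09 and -0.94 in WT rats 1, 3, 4 and 6 and at -0.87, -1.05, -1.15, -0.74 and -1.23 in ADBR3 rats 1, 3, 5, 6 and 7. The ADBR3 rats spread to both sides of the WT rats, with an SD of 0.200 against 0.0951, and the means were both -1.01. The difference was 7.8e-05 ± 0.103 (SE; limma, adjusted p = 1.0), with a 95% confidence interval from -0.23 to 0.23. Col5a2, the gene of the α2 chain, was at 0.17, 0.30, 0.34 and 0.33 in WT and at 0.36, 0.18, 0.13, 0.47 and 0.19 in ADBR3 rats, in the same order. Its difference was -0.016 ± 0.0798 (SE; limma, adjusted p = 0.965), and 3 of the 5 ADBR3 rats lay below 3 of the 4 WT rats.

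A second probe was present for Col1a1 and Col5a2. For Col1a1 the dimmer probe gave 0.54, 0.71, 0.52 and 0.42 in WT and 0.89, 0.67, 0.36, 0.96 and 0.41 in ADBR3 rats, a difference of 0.11 ± 0.135 (SE; limma, adjusted p = 0.805). For Col5a2 it gave 0.15, 0.23, 0.20 and 0.20 in WT and 0.24, 0.081, 0.054, 0.37 and -0.019 in ADBR3 rats, a difference of -0.052 ± 0.0813 (SE; limma, adjusted p = 0.856). The probes of a gene ordered the rats alike, with Pearson's r over 9 rats of 0.88 for Col1a1 and 0.89 for Col5a2, and they share arrays and scaling.

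The collagen probes are shown as the sequences that read out chains of the fibril. Coordinates are those of rat build rn4 in the scanner files, which name no exon. The probes below were chosen from those whose 60 bases hold an uninterrupted reading frame, and no base is marked.
Col1a1 (chr10:83637956-83638015, plus strand): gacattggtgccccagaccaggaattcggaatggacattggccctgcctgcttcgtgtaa
Col5a1 (chr3:6970963-6971022, plus strand): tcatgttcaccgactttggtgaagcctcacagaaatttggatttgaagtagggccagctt
Col3a1 (chr9:44317465-44317524, plus strand): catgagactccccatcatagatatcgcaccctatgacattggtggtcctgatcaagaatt
The Col1a1 probe ends on taa, the stop codon of an open frame. The main Col1a1 probe lies at chr10:83639260-83639319 and the Col1a2 probe at chr4:29428206-29428265, both on the plus strand.

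**Figure D2:**
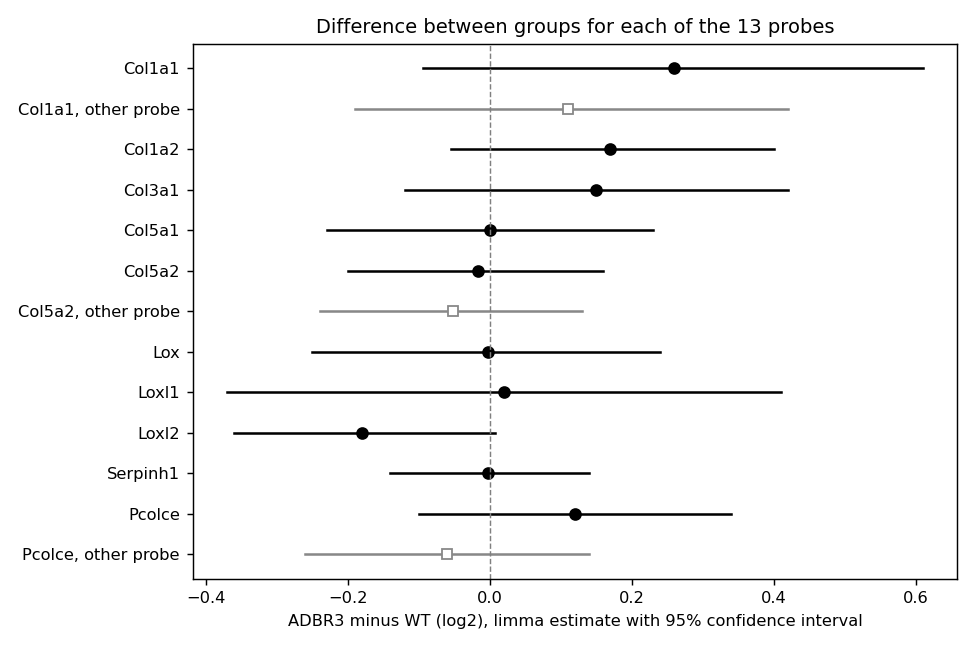
Difference between ADBR3 and WT rats (horizontal axis, log2) for the 13 probes, as limma's estimate with its 95% confidence interval; filled circles are the brightest probe of a gene and open squares the other probes. Every interval includes 0, and that of Loxl2, from -0.36 to 0.0066, comes closest to leaving it out.

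Among the lysyl oxidases, the copper enzymes that oxidize lysines of collagen and elastin so that neighbouring molecules become crosslinked, Loxl2 had the smallest p of the 10 genes. Loxl2 encodes lysyl oxidase-like 2, whose substrates include the type IV collagen of basement membranes. Its level was -1.05, -0.86, -0.96 and -0.81 in WT rats 1, 3, 4 and 6 and -0.89, -1.22, -1.17, -1.05 and -1.17 in ADBR3 rats 1, 3, 5, 6 and 7. ADBR3 rats 3, 5 and 7 lay below all WT rats, while ADBR3 rat 1 lay inside the WT range and ADBR3 rat 6 at its lower end. The means were -0.92 ± 0.107 (SD, n = 4) and -1.10 ± 0.136 (SD, n = 5), a difference of -0.18 ± 0.0820 (SE; limma, unadjusted p = 0.0571, adjusted p = 0.529). The exact two-sided permutation test over all splits of the rats gave p = 0.0794, where the smallest possible is 0.00794. A block for the slide brought it to -0.064, and within slides 1, 3 and 4 it was -0.21, -0.05 and -0.19. The block counted ADBR3 rat 1 on slide 3, although its other labeling was on slide 2, so -0.064 is not fully adjusted for the slide. The block compared the groups only on slides 1 and 3, in WT rats 1, 4 and 6 and ADBR3 rats 1 and 7. ADBR3 rats 3 and 5, which lay below all WT rats, added nothing to -0.064. For Loxl2 the replicate labelings of 1 rat differed by 0.19 in WT and 0.20 in ADBR3 rats, as much as the difference between the groups. The second labeling of each pair was on an array marked for evaluation by the scanner software.

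Loxl1, the family member best known for elastic fibres, had the widest spread between rats of the 10 genes, wider than in 84.9% of all genes tested. Its level was -1.71, -1.52, -1.39 and -1.59 in WT rats 1, 3, 4 and 6 and -1.19, -1.74, -1.94, -1.11 and -1.70 in ADBR3 rats 1, 3, 5, 6 and 7. The ADBR3 rats fell on either side of the WT rats, with rats 1 and 6 above and rats 3 and 5 below all of them. The difference of 0.02 ± 0.174 (SE; limma, adjusted p = 0.980) turned to -0.086 without ADBR3 rat 6. Within slides 1, 3 and 4 it was -0.31, 0.51 and -0.12. Its 95% confidence interval, from -0.37 to 0.41, still includes changes larger than any measured for the collagens.

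Lox, the founding enzyme of the family, was near the limit of its probe, whose signal cleared the background on 5 of the 6 arrays of WT and 7 of the 7 of ADBR3 rats. Its level was -4.06, -3.72, -3.96 and -3.88 in WT rats 1, 3, 4 and 6 and -4.13, -4.01, -3.95, -3.63 and -3.82 in ADBR3 rats 1, 3, 5, 6 and 7. ADBR3 rat 1, which was high for the collagens, had the lowest Lox level of all rats. The difference was -0.0019 ± 0.108 (SE; limma, adjusted p = 0.998), with a 95% confidence interval from -0.25 to 0.24. The probes of the 3 enzymes, each with an uninterrupted reading frame, are shown with no base marked.
Lox (chr18:47898302-47898361, minus strand): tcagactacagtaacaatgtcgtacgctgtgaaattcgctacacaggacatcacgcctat
Loxl1 (chr8:62088318-62088377, minus strand): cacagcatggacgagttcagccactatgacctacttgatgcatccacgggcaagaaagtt
Loxl2 (chr15:50067990-50068049, plus strand): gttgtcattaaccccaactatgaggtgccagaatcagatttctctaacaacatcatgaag

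Serpinh1 encodes HSP47, a chaperone of the endoplasmic reticulum that binds folded procollagen, and it was among the steadier of the 10 genes. Its level was 2.81, 2.63, 2.80 and 2.78 in WT rats 1, 3, 4 and 6 and 2.73, 2.79, 2.65, 2.88 and 2.71 in ADBR3 rats 1, 3, 5, 6 and 7. The WT rats lay within the range of the ADBR3 rats but for WT rat 3, the lowest of all. The means were both 2.75, and the difference was -0.0029 ± 0.0628 (SE; limma, adjusted p = 0.993) with a 95% confidence interval from -0.14 to 0.14. The residual spread between rats was larger than in 25.5% of all genes tested, against 81.2% for Col1a1, and 7 of the 10 genes had a larger spread than the median gene.

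Pcolce encodes procollagen C-endopeptidase enhancer, which speeds the removal of the C-terminal propeptide by BMP1. Its brighter probe was at 2.80, 2.83, 3.12 and 3.03 in WT rats 1, 3, 4 and 6 and at 3.11, 2.92, 2.96, 3.30 and 3.06 in ADBR3 rats 1, 3, 5, 6 and 7. The groups overlapped, and the difference was 0.12 ± 0.0967 (SE; limma, adjusted p = 0.709). It was 0.061 without ADBR3 rat 6 and 0.07 without WT rat 1, and within slides 1, 3 and 4 it was -0.069, 0.17 and -0.074. Within scan days 1 and 2 it was -0.089 and 0.11, so the direction of the Pcolce difference was not the same in every batch. The dimmer probe was at 2.47, 2.51, 2.66 and 2.66 in WT and at 2.58, 2.31, 2.41, 2.71 and 2.57 in ADBR3 rats, a difference in the other direction of -0.06 ± 0.0881 (SE; limma, adjusted p = 0.845). With the mean of both probes taken for the gene, the difference was 0.029.

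The disagreement between the Pcolce probes was examined rat by rat, a comparison chosen after these values were seen. The brighter probe exceeded the other by 0.33, 0.32, 0.47 and 0.37 in WT rats 1, 3, 4 and 6 and by 0.53, 0.61, 0.55, 0.58 and 0.49 in ADBR3 rats 1, 3, 5, 6 and 7. All 5 ADBR3 rats lay above all 4 WT rats. The mean gap in ADBR3 rats was 0.55 ± 0.0471 (SD, n = 5) and in WT rats 0.37 ± 0.0670 (SD, n = 4), a difference of 0.18 (exact two-sided permutation p = 0.00794, the smallest this design can give, for a comparison picked by its values). Among the 2036 genes with 2 or more kept probes, the groups were fully apart in this gap for 66 (3.24%), and 74.6% of these genes had a smaller change of the gap. The probe pairs of Col1a1 and Col5a2 were not apart, with changes of the gap of 0.14 and 0.036.

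The separation of the Pcolce gap was thinner in single arrays than in rats. The replicate hybridizations, which stand outside the comparison, gave 0.44 in both groups, and ADBR3 heart 1 gave 0.46, below the 0.47 of WT heart 4. Without the arrays that the scanner software marked for evaluation (WT heart 2 and ADBR3 heart 2), the change was 0.16 and the groups overlapped (exact permutation p = 0.0238). Within slides 1, 3 and 4 the change was 0.017, 0.10 and 0.092, and within scan days 1 and 2 it was 0.099 and 0.14. The probes lie at chr12:19672506-19672565 (the brighter) and chr12:19672572-19672631 of rn4 on the minus strand, 6 bases apart. The brighter probe, which is the one nearer the 3′ end, holds AATAAA, the hexamer common in polyadenylation signals, from its base 36, and the other has 0 matches to it. In the Col5a2 pair, whose gap overlapped between the groups, the dimmer probe holds AATAAA from its base 1 and the brighter has 0 matches.

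**Figure D3:**
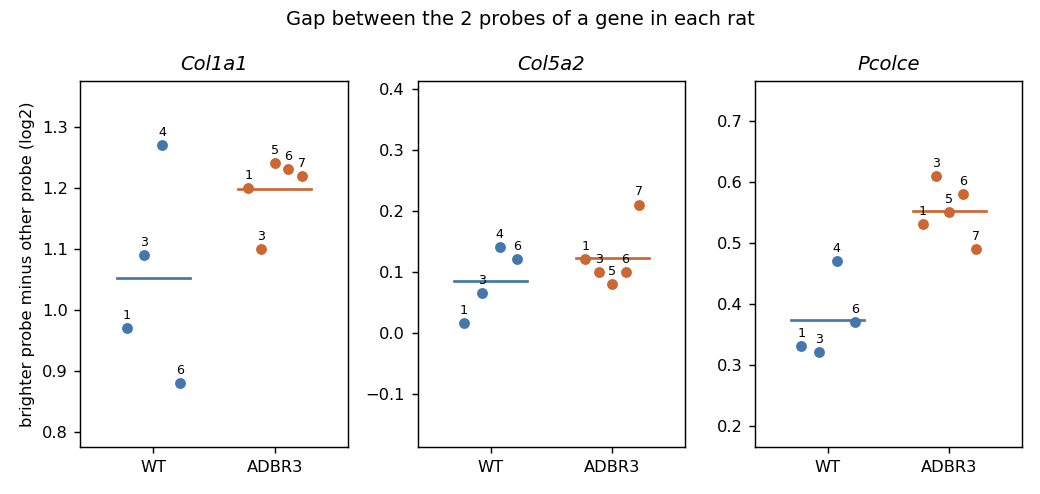
Gap between the brighter and the other probe of Col1a1, Col5a2 and Pcolce in each rat (vertical axis, log2 difference, the same span in every panel). Points are rats with their numbers and lines are group means; the ADBR3 rats lie above the WT rats for Pcolce, between 0.49 and 0.61 against 0.32 to 0.47, and overlap with them for Col1a1 and Col5a2.

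The levels of collagens I and III followed each other from rat to rat. Col3a1 followed Col1a1 over the 9 rats with Pearson's r = 0.950 (exact permutation p = 5.51e-05, adjusted over the 9 relations 0.000496) and Spearman's rho = 0.983 (exact permutation p = 4.96e-05, adjusted 0.000446). Without the 2 rats farthest from the Col1a1 median, ADBR3 rat 6 and WT rat 6, r was 0.949. With the group means removed it was 0.946, and among the 6 rats of scan day 2 it was 0.976. The points share arrays and scaling, and 9 relations with Col1a1 were computed. All 9 used the brighter Col1a1 probe, and none was computed with the dimmer one.

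Col1a2 followed Col1a1 with r = 0.825 (exact permutation p = 0.00766, adjusted 0.0345) and rho = 0.867 (exact permutation p = 0.00451, adjusted 0.0203), with r = 0.828 without the 2 farthest rats and 0.847 within scan day 2. Its adjusted p lost the threshold without WT rat 3 or 4 or ADBR3 rat 1, 5, 6 or 7, with r between 0.747 and 0.836. On the dimmer Col1a1 probe ADBR3 rats 5 and 7 were the lowest of all rats, at 0.36 and 0.41. Their Col1a2 levels of 4.20 and 4.21 lay inside the WT range, so the relation may depend on the Col1a1 probe, which was not tested. Loxl1 stood next at r = 0.758 (exact permutation p = 0.0185, adjusted 0.0555), and 0.839 without the 2 farthest rats. It passed the threshold with quantile normalization, with normexp background correction, on the authors' values and without WT rat 6, with r of 0.804, 0.813, 0.792 and 0.900, and r was 0.619 without ADBR3 rat 6.

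Collagen V stood lower, with r of 0.594 for Col5a1 and 0.600 for Col5a2 (exact permutation p = 0.0918 and 0.0893, both adjusted 0.165). Both passed without WT rat 6 (0.881 and 0.903), and without ADBR3 rat 6 their r was 0.324 and 0.335. Pcolce had r = 0.566 (exact permutation p = 0.110, adjusted 0.165), which was 0.745 without WT rat 6 and 0.266 without ADBR3 rat 6. For the other crosslinkers and the chaperone no relation with Col1a1 was detected: r was 0.205 for Lox, -0.0198 for Loxl2 and 0.210 for Serpinh1, with exact permutation p of 0.598, 0.959 and 0.588. Spearman's rho for these 3 genes was 0.200, 0.117 and 0.10. Without the 2 farthest rats r was -0.258 for Lox, 0.593 for Loxl2 and -0.0869 for Serpinh1, and with the group means removed it was 0.239, 0.430 and 0.252. Among the members themselves, Col5a2 and Loxl1 had the second highest r of all 45 pairs, 0.937, given as a description.

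**Figure D4:**
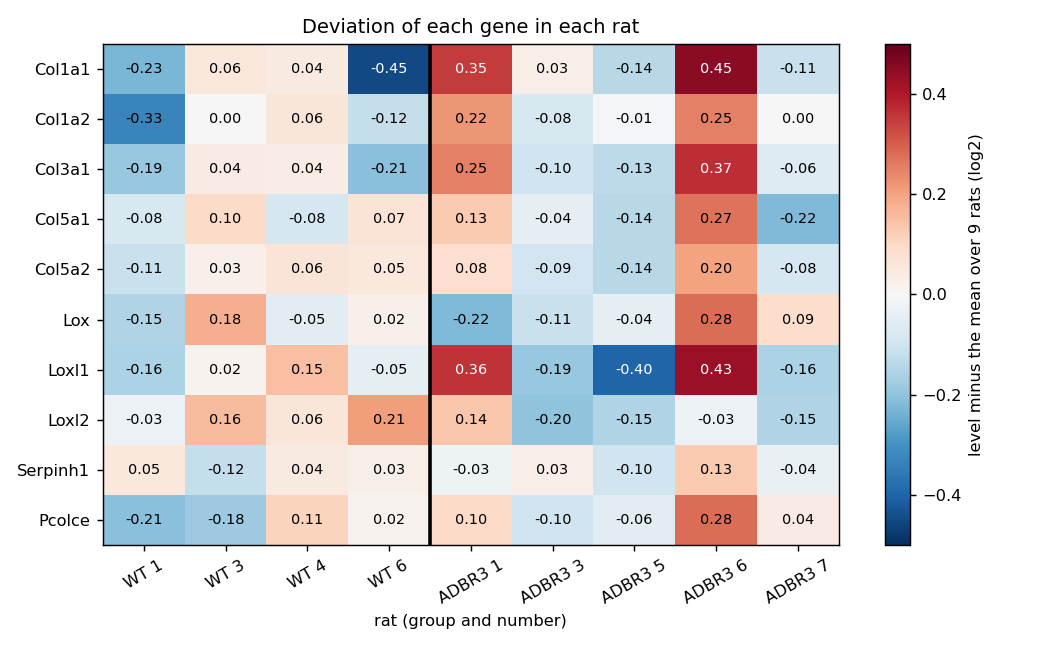
Level of each gene in each rat minus the gene's mean over the 9 rats (colour and number, log2; genes in rows, rats in columns, WT left of the black line). ADBR3 rats 1 and 6 are high and WT rats 1 and 6 low for Col1a1, while the row of Serpinh1 stays between -0.12 and 0.13.

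ADBR3 rat 6 had the highest level of 9 of the 10 genes, all but Loxl2, whereas 13.2% of all genes tested were highest in that rat. Averaged over the 10 genes, its level was 0.26 above the mean of the 9 rats, followed by ADBR3 rat 1 at 0.14. The lowest were WT rat 1 at -0.14 and ADBR3 rat 5 at -0.13, so each group held high and low rats. Every one of the 10 genes was below its 9-rat mean in ADBR3 rat 5.

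Some markers of other tissue were also high in ADBR3 rat 6. The mean level of 4 tested adipocyte markers of 8 was 1.07 there, against -1.58 to 0.21 in the other ADBR3 rats and -1.01 to 0.07 in WT rats. For 6 tested of 8 atrial and conduction markers it was 4.37, against 2.98 to 3.76 in the other ADBR3 rats and 3.03 to 3.79 in WT rats. For 6 tested of 12 markers of epicardium, mesothelium and valve it was -1.76, against -3.29 to -2.77 and -2.74 to -2.15. Single genes carried these means. Adipoq and Retn were highest in that rat, but the adipocyte markers Fabp4 and Cfd were highest in WT rats 6 and 4. Of the atrial markers Nppa, Myl7 and Sln were highest there but Myl4, Hcn4 and Pam were not, and of the third list Msln, Krt19, Prg4 and Chad were but Wt1 and Upk1b were not. The adipocyte markers Plin1, Cidec and Lep and the mesothelial marker Upk3b were not bright enough to be tested. The mean of the fibroblast markers was highest in ADBR3 rat 6 (1.15) and ADBR3 rat 1 (1.12) and lowest in WT rat 1 (0.80). Pdgfra, Dpt, Mfap5, Ddr2, Pi16, Scara5 and Vim were highest in ADBR3 rat 6. Mfap4, Lum and Fbln1 were highest in ADBR3 rat 1, Dcn and Gsn in WT rat 3 and Tcf21 in WT rat 6. Smooth muscle and pericyte markers had a mean of 1.16 in ADBR3 rat 6. It was 0.77 to 0.95 in the other ADBR3 rats and 0.78 to 0.92 in WT rats. Of these, Myh11, Acta2, Tagln and Des were highest in ADBR3 rat 6 but Rgs5, Pdgfrb, Cspg4, Kcnj8 and Notch3 were not. The means of cardiomyocyte, endothelial, and cartilage and bone markers were 7.25, 0.34 and -2.38 in ADBR3 rat 6. They were highest in WT rat 1, at 7.35, 0.39 and -2.01. The mean of macrophage markers was -0.46 in ADBR3 rat 6 and highest in WT rat 6, at -0.39. The part of these tissues in the collagen levels was not tested.

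Replicate labelings of the RNA of 1 rat were available for rat 1 of each group. The second labeling of each pair, heart 2, was an array that the scanner software marked for evaluation. In WT heart 2, 55.2% of spots cleared the background, the lowest share of all arrays. The WT labelings shared a slide and a scan day, while those of ADBR3 rat 1 shared neither. The absolute difference between labelings over the 10 genes had a median of 0.068, and it was at most 0.20 in either group. For Col3a1 it was 0.038 in WT and 0.024 in ADBR3 rats, beside a range of 0.58 over the 9 rats. For Col1a1 it was 0.15 and 0.081, beside a range of 0.89. For Loxl2 it was 0.19 and 0.20, beside a range of only 0.41. A range over 9 rats is wider than the gap of a pair by construction, so these values are not a test.

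Genes outside the 10 were ranked by their correlation over the 9 rats with the mean of the 10 centred levels. Of 10475 gene symbols, the 8 most alike were Gpx3 (r = 0.967), Specc1l (0.962), Trip6 (0.959), Olfml2b (0.954), Bex4 (0.937), Hapln3 (0.935), Macf1 (0.926) and Abi3bp (0.919). None of these 8 passed the threshold between the groups, with adjusted p between 0.736 and 0.978 (limma), and these correlations are a description of shared arrays. Some of the 8 were dim. Olfml2b, from -5.36 to -4.01, lay below Lox in every rat, and Bex4 and Hapln3 fell as low as -4.21 and -3.98.

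The wider collagen pathway was read from 7 gene lists. Of 110 genes with a probe, 93 were tested, 60 were higher and 33 lower in ADBR3 rats (64.5% higher, against 46.7% of all genes), and 0 passed the adjusted threshold. An unadjusted p below 0.05 was found for 6 of the 93 (6.45%, against 9.44% of all genes), and the groups were fully apart for 3 (3.23%, against 3.52%). Of the 93 genes, 41 (44.1%, against 13.2% of all genes) were highest in ADBR3 rat 6.

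Genes that modify and fold the chains lay around 0. Of 13 tested prolyl and lysyl hydroxylases and collagen glycosyltransferases 6 were higher and 7 lower, with a median of -0.0074 (-0.026 without ADBR3 rat 6). P3h3, a prolyl 3-hydroxylase family member, differed by 0.23 (limma, adjusted p = 0.529), and Crtap, the partner of the prolyl 3-hydroxylase complex, by -0.13 (adjusted p = 0.586). Of 14 tested folding and export genes 8 were higher and 6 lower, with a median of 0.00067 (-0.018 without ADBR3 rat 6). Fkbp10, a prolyl isomerase that acts with Serpinh1 on procollagen, differed by 0.30 (adjusted p = 0.506), and Pdia4, a protein disulfide isomerase, by -0.30 (adjusted p = 0.554). The Fkbp10 signal was clear of the background on 5 of the 6 arrays of WT and 7 of the 7 of ADBR3 rats.

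The proteinases that trim procollagen were few. Of 8 genes with a probe 3 were tested: Tll1, a BMP1-like proteinase, differed by -0.15 (limma, adjusted p = 0.607), Adamts2, the N-propeptidase, by 0.17 (adjusted p = 0.643) and Bmp1, the C-proteinase that Pcolce enhances, by -0.012 (adjusted p = 0.969). Of 6 tested other fibrillar collagens and crosslinking enzymes 3 were higher and 3 lower, with a median of -0.046, or -0.13 without ADBR3 rat 6. The minor fibrillar collagen genes Col27a1 and Col11a2 differed by -0.18 and -0.21 (adjusted p = 0.579 and 0.750).

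Most genes of the list of fibril-associated collagens and fibril-binding proteins, which also holds wider matrix genes such as Eln, Fn1 and Postn, had positive differences. Of 21 tested 18 were higher and 3 lower, where 46.7% of all genes were higher. The median was 0.16, which was 0.079 without ADBR3 rat 6, and 0 passed the threshold. Thbs2, the gene of thrombospondin 2, a matricellular protein known to influence fibril structure, was at -1.25, -1.04, -1.17 and -1.54 in WT rats 1, 3, 4 and 6 and at -0.90, -0.91, -0.91, -0.88 and -0.98 in ADBR3 rats 1, 3, 5, 6 and 7. The groups were fully apart, and the difference was 0.34 ± 0.0906 (SE; limma, adjusted p = 0.323). Omd, the gene of the small leucine-rich proteoglycan osteomodulin, differed by 0.27 (adjusted p = 0.484).

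Of 9 tested genes of collagen degradation and its inhibitors 5 were higher and 4 lower, with a median of 0.098, or 0.023 without ADBR3 rat 6. Mmp2, a gelatinase, was at 2.42, 2.38, 2.61 and 2.66 in WT rats 1, 3, 4 and 6 and at 2.91, 2.72, 2.72, 2.88 and 2.72 in ADBR3 rats 1, 3, 5, 6 and 7. The groups were fully apart with a difference of 0.27 ± 0.0780 (SE; limma, adjusted p = 0.373). Mrc2, the collagen uptake receptor Endo180, differed by 0.46 (adjusted p = 0.447), with a signal clear of the background on 5 of the 6 arrays of WT rats.

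Of 27 tested genes of profibrotic signalling and its targets 19 were higher and 8 lower, with a median of 0.048, or -0.0043 without ADBR3 rat 6. Smad4, the shared partner of the receptor-activated SMADs of TGF-β signalling, was the third pathway gene with groups fully apart, from -3.99 to -3.78 in WT and from -3.76 to -3.53 in ADBR3 rats. Its difference was 0.22 ± 0.0660 (SE; limma, adjusted p = 0.384). Agtr1a, an angiotensin II receptor gene, differed by 0.36 (adjusted p = 0.526). Its signal was clear of the background on 4 of the 6 arrays of WT and 7 of the 7 of ADBR3 rats.

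**Figure D5:**
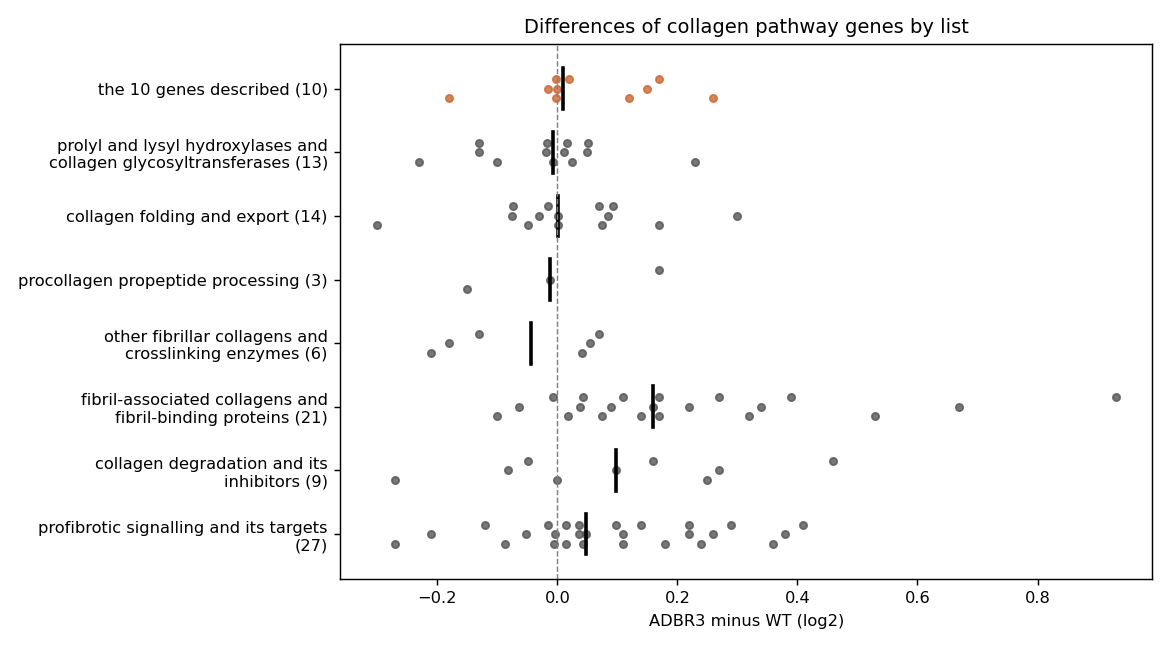
Difference between ADBR3 and WT rats (horizontal axis, log2) for the 10 genes and for each tested gene of 7 pathway lists, with the number of genes in brackets. Points are genes and black bars list medians; the medians run from -0.046 to 0.16, the latter for the fibril-binding list.

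Promoter sequence from RefSeq (build GRCr8) was found for 6 of the 10 genes: Col1a2, Col5a1, Col5a2, Loxl1, Serpinh1 and Pcolce. Stretches of 2 are shown, for Col1a2 because it followed the brighter Col1a1 probe over the rats and for Serpinh1 as the gene with the smallest spread between rats. The capitals mark matches to TATAAA (searched on the gene's strand), to CCAAT and to TTCNNGAANNTTC (both strands), the last being the trimer of the heat shock element.
Col1a2 (chr4:33518307-33518416, plus strand): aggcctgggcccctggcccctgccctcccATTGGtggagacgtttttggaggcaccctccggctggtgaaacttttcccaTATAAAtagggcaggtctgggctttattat
Serpinh1 (chr1:163062977-163063126, minus strand): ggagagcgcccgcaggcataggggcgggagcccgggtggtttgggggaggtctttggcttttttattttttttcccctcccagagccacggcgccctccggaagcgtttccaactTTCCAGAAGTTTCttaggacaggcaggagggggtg
In Col1a2, TATAAA starts at position -170 and the reversed CCAAT at -221 relative to the annotated start. In Serpinh1, the heat shock element match starts at position -35. In windows of 250 bases before to 50 after the start, TATAAA was found in 8.8%, CCAAT in 37.5% and TTCNNGAANNTTC in 0.798% of 33469 promoters. GGGCGG, searched on both strands, was present in Col5a1, Serpinh1 and Pcolce and in 33.1% of all promoters. No match overlapped another in these windows, and a match to letters is a description only.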

How the data were processed

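The authors' deposited scanner files hold spot intensity from Agilent Feature Extraction 10.7.1.1, background-subtracted and detrended, per the file headers (array design 028279, build rn4). The authors' deposited series table holds natural log values of 20000 of the 30367 probes, as matched to the scanner values; its scaling between arrays stays unknown, and it served as an alternative. Here log2 processed signal minus the array's 75th percentile was averaged over a probe's spots and over the replicate labelings of a rat. The 2 replicate hybridizations were left out, since their partner is not named. Probes well above background in at least 4 of 9 rats were kept, the brightest one per gene. Groups were compared with limma 3.58.1 (lmFit, eBayes) in R 4.3.3 over 15367 genes with Benjamini-Hochberg adjustment at 0.05, and single values with an exact permutation test over all splits of the rats. On data simulated with normal noise drawn independently for each gene, 88% of genes changed by a log2 of 1 were recovered. Changes as small as those of the collagen genes were not simulated, so this share does not apply to them. Each value in a test stood for 1 rat, with labelings averaged and repeat hybridizations left out, so p-values measure the spread between rats. Same-numbered hearts 1, 3 and 6 of the groups correlated at 0.106, 0.0347 and 0.124, so the numbers were not taken to pair them.

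The named genes were all 10 members, the 2 genes of each pathway list with the smallest p and any past the threshold, and the 8 symbols most alike; Bmp1 and the single marker genes were named outside this rule, after their values were seen. Members, lists and tests were chosen with earlier results of these data known. Gene names are those of the array design; 10 of the 13 probes matched a RefSeq symbol by accession. Motifs and identities were computed in Python 3.11.15 with pandas 2.3.3 and numpy 2.4.6, and plots drawn with matplotlib 3.10.9.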

Additional observations from a re-analysis of the deposited data

Results flagged for a closer look

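3 values of the 32 groups of rats examined lay far from the others of their group, judged by the gap to the nearest rat as a share of the group's range; chance alone marks about 1 in 20 groups. Serpinh1 in WT rat 3 was at 2.63, while the next WT rat was at 2.78 (gap 0.868 of the range, above the critical 0.829 for 4 rats). The gap between the Col1a1 probes in ADBR3 rat 3 was 1.1, against 1.20 in the next ADBR3 rat (0.728 of the range, above the critical 0.710 for 5 rats). The gap between the Col5a2 probes in ADBR3 rat 7 was 0.21, against 0.12 in the next (0.712 of the range).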

How the results depend on the processing

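In all 23 alternatives 0 of the 10 genes passed the threshold, with a smallest adjusted p of 0.327 (limma), and Col1a1, Col1a2, Col3a1, Pcolce and Loxl2 kept their direction in each of the 23; within single slides or scan days Loxl2 kept it and the other 4 did not in all. The other 5 genes, all within 0.02 of no difference, changed sign in some. Col5a2, Lox and Serpinh1 stood above 0 with median scaling (0.025, 0.040 and 0.039), which shifts all genes alike and moved the median of all genes from -0.0089 to 0.033, and quantile normalization (0.0061, 0.058 and 0.0039). With normexp Col5a1 was -0.0041 and Serpinh1 0.019, with slide as a block Col5a2 was 0.00067, and with scan day as a block Lox was 0.0034. Both blocks placed ADBR3 rat 1 by its first labeling, although the second was on another slide and scan day. The slide block compared the groups only in WT rats 1, 4 and 6 and ADBR3 rats 1 and 7, on slides 1 and 3. With the replicate hybridizations as further samples Col5a1 was -0.0061 and Loxl1 -0.022. Without the arrays marked for evaluation, an alternative chosen after seeing the data, Col5a1 was -0.0084 and Serpinh1 0.0019. Leaving out each rat in turn gave -0.067 to 0.054 for Col5a1, -0.068 to 0.017 for Col5a2, -0.072 to 0.059 for Lox, -0.086 to 0.12 for Loxl1 and -0.044 to 0.023 for Serpinh1. On hearts 1, 3 and 6 alone the median was 0.15, Col5a2 0.072 and Serpinh1 0.058, the same with a replicate block as without it. In either, 0 genes passed, and whether the numbers pair the rats is not given. That subset keeps ADBR3 rats 1 and 6, the highest on the mean of the 10 genes, and leaves out WT rat 4, the highest WT rat. The r with Col1a1 was 0.0188 for Loxl2 with quantile normalization, and -0.0549 and -0.0947 for Lox with normexp and on the authors' values. Leaving out each rat gave r of -0.309 to 0.593 for Lox, -0.220 to 0.434 for Loxl2 and -0.247 to 0.375 for Serpinh1. The cause of these changes was not tested. The number of rats limits the precision; Lox was near the background of its probe, and with the filter of all 9 rats it was not tested.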
